A study of Mus musculus with 4 samples.

Results

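The Notch genes described here are 10 genes chosen by name from the 47069 Ensembl gene identifiers of the table: the receptors Notch1, Notch2, Notch3 and Notch4, the ligands Jag1, Jag2 and Dll4, and the target genes Hes1, Hey1 and Heyl. Each name matched 1 identifier. They were measured in wild type C57BL/6J mBMSCs, bone marrow stromal cells grown from the tibia and femur of 8-week-old mice as the cells that stuck to the plate, at passage P1. At full confluence, 2 libraries received 3 d of GA (50 μM) plus DEX (1 μM), and the other 2 received an equal volume of DMSO plus DEX (1 μM). GA, ginkgolic acid, inhibits sumoylation, and by the paper it has also been reported to inhibit histone acetyltransferase. DEX, dexamethasone, is a synthetic glucocorticoid that both groups received, so there was no group without it. The comparison asks how GA altered the transcriptome of these cells, and poly(A) RNA was sequenced. No source used here says if libraries of a group stem from different mice or dishes. The p-values therefore describe no more than the spread of these libraries, which may be technical.

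Notch signalling passes between touching cells. A ligand of the Jagged or Delta-like family on one cell binds a receptor on its neighbour, an ADAM protease and then gamma-secretase cut the receptor, and the freed intracellular domain joins the DNA-binding protein RBPJ and a Mastermind coactivator in the nucleus. The HES and HEY genes are the best known targets, and their proteins are repressors of transcription. In bone marrow stroma, Notch signalling is known for holding back the maturation of osteoblasts.

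The values are FPKM, fragments counted in a gene, scaled to its length and to the reads of the library, as the authors deposited them. They rested on 31069538 and 25717834 reads in DMSO plus DEX and on 21559951 and 24611800 reads in GA plus DEX, recovered from their steps. The 10 genes with the most reads took 22.8% of the reads of the DMSO group and 12.8% of those of the GA group, and the log2 fold change of the median gene was 0.19. Changes are therefore given as deposited and, for genes averaging 1 FPKM or more, also after the log values of each library were shifted to a common median. After this shift the log2 fold change of the median gene was -0.04, so the shift moved genes down by more than that 0.19. Stromal markers (Lepr, Cxcl12, Pdgfra, Pdgfrb, Thy1 and Eng) summed to 360 and 371 FPKM in DMSO plus DEX and to 1094 and 1093 FPKM in GA plus DEX, with Thy1 under 1 FPKM throughout. Most of that difference was Cxcl12, and without it the sums were 140 and 143 FPKM and then 168 and 172 FPKM. Of the 6, Lepr, Cxcl12 and Pdgfra were higher in both GA libraries and Pdgfrb, Eng and Thy1 lower. Markers of macrophages summed to between 2154 and 3205 FPKM, so the cultures held RNA of cells other than stroma. Adipocyte markers rose from sums of 14.1 and 13.6 FPKM to 4539 and 3888 FPKM, with all 6 called higher, and osteoblast markers fell from 68954 and 65663 FPKM to 30408 and 34814 FPKM, with all 6 called lower. In bulk RNA, fewer cells of a type and less RNA per cell cannot be told apart.

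Hes1 and Hey1 fell in GA plus DEX under each scaling, and the 4 receptors and Jag1 rose as deposited, of which Notch1 and Notch3 still passed the test after the shift. Hes1 was 2.11-fold lower and Hey1 1.76-fold lower, and Notch3 was 1.72-fold higher and Notch1 1.56-fold higher. In 8 of the 10 Notch genes both GA libraries stood above both DMSO libraries, where 44.8% of the 23404 genes above 0 did. In Hes1 and Hey1 both GA libraries stood below both DMSO libraries, where 14.1% of these genes did. The test was limma on log2(FPKM + 1), two-sided, at a Benjamini-Hochberg adjusted p under 0.05, over the 12174 genes whose FPKM averaged 1 or more. Of the Notch genes, 7 reached this minimum, and Jag2, Dll4 and Heyl did not. As deposited, 5 of the 7 were called higher, beside 46.3% of all genes tested, and 2 were called lower, beside 11.9%. After the shift to a common median, 2 of the 7 (Notch1 and Notch3) were called higher, beside 19.5% of all genes, and 2 (Hes1 and Hey1) were called lower, beside 27.9%. By the thresholds of the study (unadjusted p under 0.05 with a log2 fold change past 0.5 or -0.5), 2 of the 7 were higher, beside 16.8% of all genes, and 2 were lower, beside 4.53%. With so few genes these shares are descriptions.

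**Figure D1:**
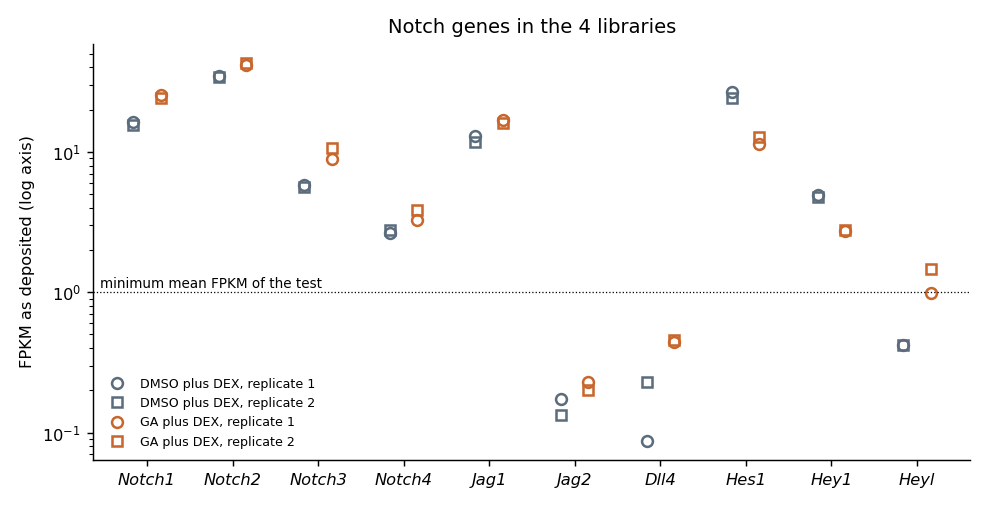
FPKM of the 10 Notch genes on a log axis, with 1 point per library, circles for replicate 1 and squares for replicate 2 of each group. Points of the 2 groups overlap in none of the 10 genes. Hes1 and Hey1 are lower in GA plus DEX, and Jag2, Dll4 and most Heyl values lie under the dotted minimum of 1 FPKM.

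The promoter windows of 4 genes (Notch1, Notch2, Notch3 and Jag1) are shown. They were picked because they were called higher as deposited and hold letters that HES, HEY or related repressors are known to recognise. Of these, Notch2 and Jag1 did not pass after the shift. Notch4, also called higher as deposited, held 0 matches, and the windows of Notch4, Jag2 and Dll4 are not shown. Whether such repressors act on these genes was not tested. RefSeq promoter sequences (build GRCm38.p6) were given for 7 of the 10 Notch genes, all but Hes1, Hey1 and Heyl. The 250 bases before the start of each gene were searched on both strands for the N box CACNAG, the class C site CACGCG, the E box CACGTG and the RBPJ core TGGGAA. Capitals mark the matches, written 5′ to 3′ on the strand of the gene. No match overlapped another. The windows are Notch1 at chr2:26503823-26504072 (minus strand), Notch2 at chr3:98013288-98013537 (plus strand), Notch3 at chr17:32166891-32167140 (minus strand) and Jag1 at chr2:137116521-137116770 (minus strand).
Notch1: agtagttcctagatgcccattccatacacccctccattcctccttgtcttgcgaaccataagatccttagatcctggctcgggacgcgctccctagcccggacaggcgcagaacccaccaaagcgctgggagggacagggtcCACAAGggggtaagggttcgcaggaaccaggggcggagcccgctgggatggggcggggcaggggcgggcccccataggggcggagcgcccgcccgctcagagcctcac
Notch2: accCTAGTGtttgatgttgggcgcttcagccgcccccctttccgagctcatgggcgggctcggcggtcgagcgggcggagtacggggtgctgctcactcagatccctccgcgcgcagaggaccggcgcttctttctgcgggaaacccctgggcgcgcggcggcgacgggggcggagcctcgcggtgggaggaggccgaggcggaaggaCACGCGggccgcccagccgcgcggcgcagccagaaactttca
Notch3: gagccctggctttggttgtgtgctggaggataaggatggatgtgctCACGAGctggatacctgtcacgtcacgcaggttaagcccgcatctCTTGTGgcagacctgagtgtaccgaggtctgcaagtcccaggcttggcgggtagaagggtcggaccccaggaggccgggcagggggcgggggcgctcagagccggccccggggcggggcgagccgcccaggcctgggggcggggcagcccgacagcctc
Jag1: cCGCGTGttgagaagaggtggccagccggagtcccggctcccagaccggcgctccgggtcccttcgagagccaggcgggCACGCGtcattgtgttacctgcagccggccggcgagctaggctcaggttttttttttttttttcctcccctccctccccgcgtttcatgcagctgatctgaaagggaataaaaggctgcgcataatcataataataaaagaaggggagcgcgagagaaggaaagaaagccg

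The N box was found in 4 of the 7 windows, those of Notch1, Notch2, Notch3 and Dll4, and in 36.7% of 32851 windows of this length. The first base of the match lay 108 bases before the start in Notch1 and 247 bases before it in Notch2. Notch3 held 2 matches, 204 and 159 bases before the start. The class C site was found in 3 of the 7 windows (Notch2, Jag1 and Dll4) and in 7.6% of all windows, with 2 matches in Jag1 at 249 and 171 bases before the start. The E box and the RBPJ core were found in 0 of the 7 windows and in 6.0% and 21.6% of all windows. These are matches of letters in a short window and say nothing of binding.

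Among the receptors, Notch2 had the most FPKM. Its level was 35.0 and 34.0 FPKM in DMSO plus DEX and 41.9 and 43.1 FPKM in GA plus DEX, with no overlap. The rise was 1.23-fold, with a log2 fold change of 0.29 (SE 0.05) and an adjusted p by limma of 0.00279. This was 0.11 above the median gene, and after the shift the log2 fold change was 0.06, which did not pass (adjusted p by limma 0.396). The call failed in 4 of 15 alternative settings. Notch2 is known from bone marrow stroma and from myeloid cells. The 9 macrophage markers summed to 2411 and 2154 FPKM in DMSO plus DEX and to 3205 and 2707 in GA plus DEX. Lyz2 made up most of these sums, and without it they were 254.5 and 263.7 FPKM and then 444.7 and 395.9 FPKM. Of the 9 macrophage markers, 7 were higher in both GA libraries. The 7 osteoclast markers summed to 303 and 288 FPKM in DMSO plus DEX and to 930 and 868 FPKM in GA plus DEX, with all 7 higher in both GA libraries and all 6 of those tested called higher, also after the shift. The part of these cells in the Notch2 values was not tested.

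Notch1, the receptor known for its part in T cell development and in many other tissues, measured 16.2 and 15.7 FPKM in DMSO plus DEX and 25.3 and 24.4 FPKM in GA plus DEX. Each GA library exceeded both DMSO libraries. The means were 15.9 ± 0.40 and 24.9 ± 0.65 FPKM (SD, n = 2), a 1.56-fold rise. The log2 fold change was 0.61 (SE 0.06) with an adjusted p by limma of 1.11e-04, and after the shift it was 0.38 with an adjusted p of 0.00154. The call held under all 15 alternative settings (adjusted p by limma from 4.97e-05 to 0.0336). In the GENCODE M21 annotation 1068 exon bases of Notch1 are shared with 0610009E02Rik on the opposite strand, which was at 0.9497 and 1.15 FPKM in DMSO plus DEX and at 0.811 and 0.799 FPKM in GA plus DEX. The strand setting of the counting is not given in the sources used here, so reads in those bases cannot be assigned to one of the 2 genes. Notch3 shares 488 exon bases with Gm17276 on the opposite strand, and Notch2 shares 541 with Gm42820 on its own strand, and these genes reached at most 0.0419 and 0.0796 FPKM.

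Notch3, a receptor best known in the smooth muscle cells and pericytes of vessel walls, rose as well. It was at 5.77 and 5.60 FPKM in DMSO plus DEX and at 8.98 and 10.6 FPKM in GA plus DEX, with GA replicate 2 the highest. The log2 fold change of 0.69 (SE 0.09) was the largest rise of the 7 tested Notch genes (adjusted p by limma 4.82e-04), and after the shift it was 0.46 (adjusted p 0.00421). It failed in 1 of 15 alternatives, the per-gene model without moderation (adjusted p 0.0749). Beside it, the 9 markers of mural cells (pericytes and smooth muscle cells) summed to 131 and 154 FPKM in DMSO plus DEX and to 199 and 193 FPKM in GA plus DEX, with none at 0 in all libraries. Of these 9 markers, 3 had both GA libraries above both DMSO libraries, 2 had them below and 4 overlapped. The sum moved through Mcam, which went from 1.25 and 1.61 FPKM to 57.6 and 57.4 FPKM, and without it the sums overlapped, at 130.1 and 152 FPKM and at 142 and 136 FPKM. Their part in the Notch3 result was not tested.

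Notch4, a receptor known mainly from endothelial cells, was the lowest of the 4 receptors. It measured 2.64 and 2.79 FPKM in DMSO plus DEX and 3.30 and 3.86 FPKM in GA plus DEX, on 110 to 147 reads. The groups did not overlap, but the gap between the nearest libraries was smaller than that between the 2 GA libraries. The log2 fold change was 0.30 (SE 0.10) with an adjusted p by limma of 0.0326, and it fell to 0.07 after the shift (adjusted p 0.604). With each library left out in turn the log2 fold change ran from 0.21 (without GA replicate 2) to 0.39 (without GA replicate 1). The call failed in 9 of 14 alternative settings. Among these were the runs without DMSO replicate 1, DMSO replicate 2 or GA replicate 2.

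**Figure D2:**
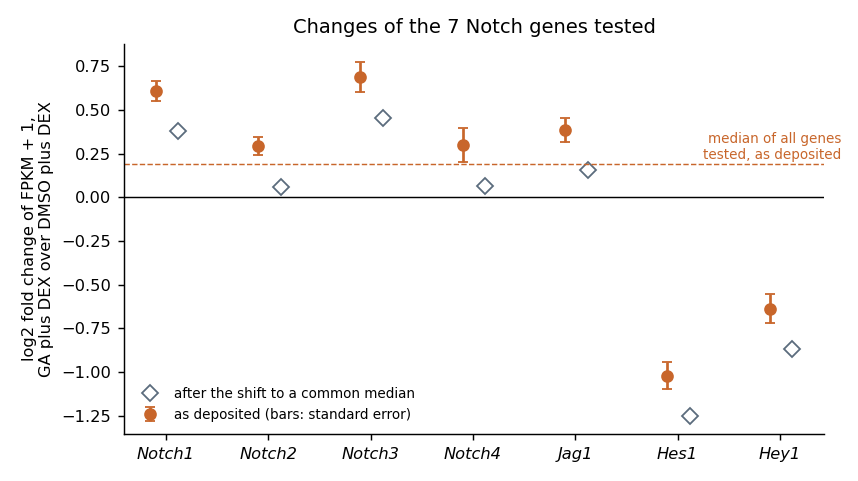
Log2 fold change of FPKM + 1, GA plus DEX over DMSO plus DEX, for the 7 Notch genes tested, as deposited (filled points, bars show the standard error) and with libraries shifted to a common median (open diamonds). Notch1 and Notch3 stay well above 0 under both, Notch2, Notch4 and Jag1 come close to 0 after the shift, and Hes1 and Hey1 are below 0 under both.

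The order of the receptors by level depends on the gene length behind FPKM. Summed over the 4 receptors, the deposited values were 59.6 and 58.1 FPKM in DMSO plus DEX and 79.4 and 82.0 FPKM in GA plus DEX. Notch2 made up 58.7% and 58.6% of that sum in DMSO plus DEX and 52.7% and 52.6% in GA plus DEX, while Notch1 made up 27.2% and 27.0% and then 31.9% and 29.7%. The reads and FPKM values together give the length that was divided by. The check took the 6491 genes with at least 500 reads in every library. For 4190 of them the length lay within 1 base of the mean of the gene's GENCODE M21 transcripts. Where several lengths fitted, one close to that mean was taken if there was one, so this count is no independent check. For Notch1, with 11 annotated transcripts, the length was 1519 bases, whereas its longest transcript has 9488 bases. For Notch3 it was 8044 bases, beside a longest transcript of 8016.

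With the longest transcript in place of that length, a choice made after the data were seen, Notch3 stood above Notch1 in every library. Notch1 was then at 2.60 and 2.51 FPKM in DMSO plus DEX and at 4.05 and 3.91 FPKM in GA plus DEX. Notch3 was then at 5.79 and 5.62 FPKM and at 9.01 and 10.7 FPKM. As deposited, the mean of Notch1 over that of Notch3 was 2.81 under DMSO and 2.54 under GA, and by longest transcript it was 0.448 and 0.405. Notch2 was first and Notch4 last on both scales, with Notch2 at 69.6% of the receptor sum in both DMSO libraries and at 64.1% and 62.2% in the GA libraries by longest transcript. Neighbours in the order did not overlap in any group on either scale. The length cancels in a comparison of 1 gene between groups.

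**Figure D3:**
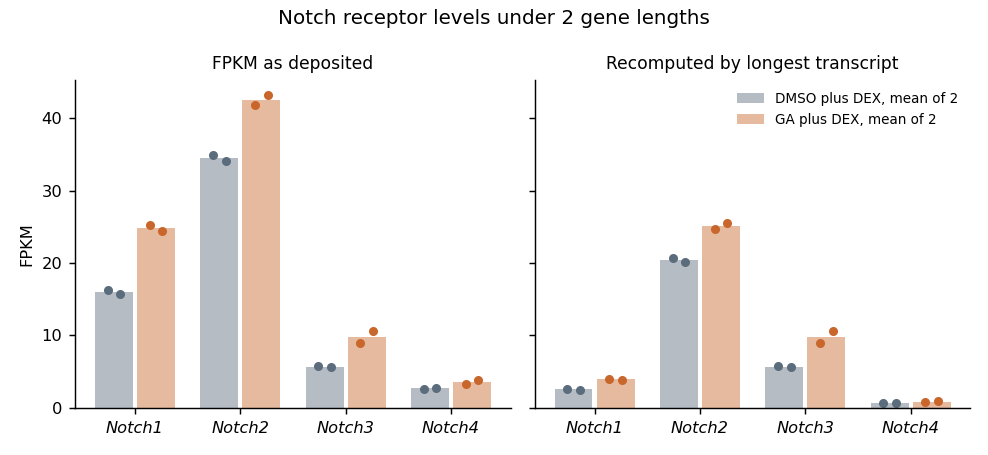
FPKM of the 4 receptors as deposited (left) and recomputed by the longest GENCODE M21 transcript (right); bars show the mean of 2 libraries and points the libraries. Notch1 is above Notch3 on the left and below it on the right, and Notch2 is highest on both.

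Of the ligands, Jag1 was the one with a clear level. Jag1, known as the main Jagged ligand of bone marrow stroma, was at 12.9 and 11.8 FPKM in DMSO plus DEX and at 16.8 and 16.1 FPKM in GA plus DEX. Both GA libraries were higher, by 1.33-fold in the mean. The log2 fold change was 0.39 (SE 0.07) with an adjusted p by limma of 0.00215, and 0.16 after the shift, which did not pass (adjusted p by limma 0.112). The call failed in 3 of 15 alternative settings.

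Dll4, the Delta-like ligand of sprouting endothelium, was near the limit of detection. Its values were 0.0870 and 0.228 FPKM in DMSO plus DEX and 0.439 and 0.458 FPKM in GA plus DEX, on 6, 13, 21 and 25 reads. In the fit with no minimum FPKM over 23404 genes, where 20.3% of all genes were called higher, its log2 fold change was 0.33 (adjusted p by limma 0.0443). That fit was of the deposited values, and Dll4 had none after the shift. An annotated gene on the opposite strand, Gm14207, shares 214 exon bases with it and was at 0.0410 and 0 FPKM in DMSO plus DEX and at 0.177 and 0.155 FPKM in GA plus DEX. The 12 endothelial markers, none of them at 0 in all libraries, summed to 6.36 and 5.96 FPKM in DMSO plus DEX and to 17.2 and 10.5 FPKM in GA plus DEX. Of these 12, 8 had both GA libraries above both DMSO libraries and 4 overlapped, and the highest value of any was 5.06 FPKM. Their part in the Dll4 and Notch4 values was not tested.

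Jag2, the other Jagged ligand, measured 0.175 and 0.134 FPKM in DMSO plus DEX and 0.229 and 0.2004 FPKM in GA plus DEX, on 7 to 11 reads per library. At this depth no difference was detectable, and without a minimum FPKM the adjusted p by limma was 0.338.

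As deposited, the targets did not move together. Hes1, a repressor that responds to Notch and to other signals and is known to oscillate in growing cells, was at 26.8 and 24.2 FPKM in DMSO plus DEX and at 11.4 and 12.8 FPKM in GA plus DEX. Both GA libraries were under 13 FPKM and both DMSO libraries above 24 FPKM, and the means were 25.5 ± 1.83 and 12.1 ± 1.01 FPKM (SD, n = 2). Its log2 fold change of -1.02 (SE 0.08) was the largest fall of the 7 tested Notch genes (adjusted p by limma 3.73e-05), and it was -1.25 after the shift (adjusted p 1.75e-05). It failed in 1 of 15 alternatives, the model without moderation (adjusted p 0.0511).

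Hey1, a HEY repressor known for acting on RUNX2 in osteoblast precursors, was at 4.96 and 4.75 FPKM in DMSO plus DEX. It was at 2.74 and 2.79 FPKM in GA plus DEX, on 74 and 86 reads. The groups were far apart beside the spread within them, with a log2 fold change of -0.64 (SE 0.08) and an adjusted p by limma of 5.1e-04. After the shift it was -0.87 (adjusted p 1.19e-04), and the call held under all 14 alternatives that could be fitted. The 6 osteoblast markers named by their sums above fell in the same libraries, and their part in the fall of Hes1 and Hey1 was not tested.

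Heyl, the HEY gene known from smooth muscle, moved the other way. It was at 0.419 and 0.421 FPKM in DMSO plus DEX and at 0.980 and 1.45 FPKM in GA plus DEX, a 2.90-fold difference of the means on 24, 20, 39 and 66 reads. The DMSO libraries were nearly equal and the GA libraries were spread. Its mean lay under the minimum of the main test. In the fit with no minimum FPKM, where 20.3% of all genes were called higher, its log2 fold change was 0.63 (adjusted p by limma 0.0297). This fit used the values as deposited, and Heyl was not fitted after the shift.

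Ratios of 2 genes within a library do not depend on how libraries are scaled, and 5 were computed. Heyl over Hes1 was 0.0156 and 0.0174 in DMSO plus DEX and 0.0864 and 0.114 in GA plus DEX, which is 2.59 higher on the log2 scale. Hey1 over Hes1 was 0.185 and 0.196 and then 0.241 and 0.218, a log2 difference of 0.27. In these values Hes1 was lower relative to both HEY genes in each GA library. For Hey1 over Hes1 the nearest libraries, DMSO replicate 2 and GA replicate 2, rested on 153 and 86 reads of Hey1. Whether their gap exceeds counting error was not tested. Notch2 over Notch1 was 2.15 and 2.17 in DMSO plus DEX and 1.65 and 1.77 in GA plus DEX, a log2 difference of -0.34. Jag1 over Notch2 was 0.369 and 0.347 and then 0.401 and 0.373, a log2 difference of 0.11. In each of these 4 ratios the groups did not overlap, and the two-sided exact permutation p was 0.333, the smallest that 2 against 2 libraries can give (0.417 adjusted over the 5 ratios). Notch3 over Notch1 was 0.355 and 0.358 in DMSO plus DEX and 0.355 and 0.435 in GA plus DEX, so the groups overlapped (log2 difference 0.14, exact permutation p = 1.0). Without GA replicate 2 that difference was -0.007.

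**Figure D4:**
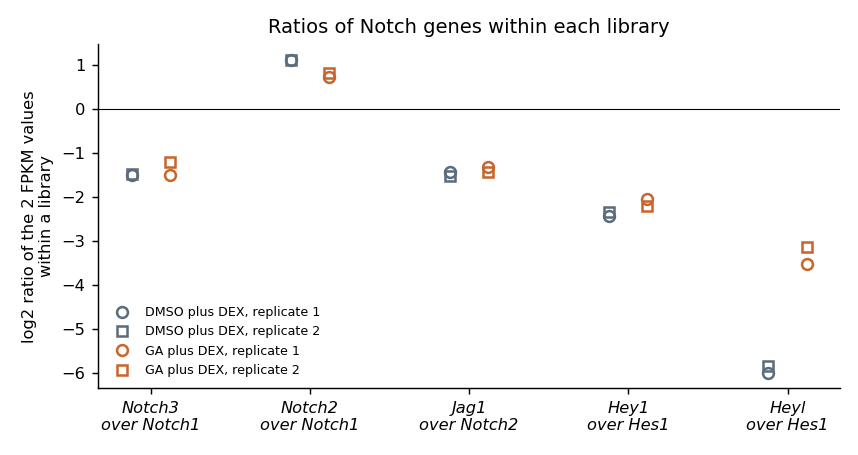
Log2 of the ratio of 2 FPKM values within each library, with 1 point per library, for 5 pairs of Notch genes. Heyl over Hes1 rises from about -5.92 to -3.34 in the group means, Notch2 over Notch1 is lower in both GA libraries, and the 2 groups of Notch3 over Notch1 overlap.

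Around these 10 genes, 79 other genes of the pathway were listed by step, and 68 of them were tested. As deposited, 31 (45.6%) were called higher and 13 (19.1%) lower, with a median log2 fold change of 0.17 beside 0.19 over all genes tested. Of all genes tested, 46.3% were called higher and 11.9% lower. After the shift 12 (17.6%) were called higher and 22 (32.4%) lower, beside 19.5% and 27.9% of all genes. The counts of the steps that follow stand beside these same shares of all genes, and with 3 to 16 genes in a step they are descriptions.

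Of the other ligands, 5 of 8 were tested, and 1 rose and 2 fell, against 1 higher and 3 lower after the shift. The riser was Ccn3, a matricellular protein reported as a non-canonical Notch ligand, which went from 2.55 and 3.02 FPKM to 23.2 and 23.0 FPKM. Its log2 fold change of 2.68 (SE 0.08; adjusted p by limma 2.69e-07) was the largest of the pathway genes tested. The genes that fell were Dlk2, a Delta-like protein without the DSL domain of the classical ligands, at -0.65, and Mfap2, a microfibril protein reported to bind Notch1, at -0.55 on the log2 scale.

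Among the 10 genes that cut the receptor, 3 rose, 2 fell and 5 did not pass. With the shift the calls were 2 higher and 3 lower. Psen2, a catalytic subunit of gamma-secretase, went from 18.6 and 18.8 FPKM to 37.3 and 34.3 FPKM, a log2 fold change of 0.90. Adam17, a sheddase, rose by 0.56 on the log2 scale. Furin, which cleaves the receptor on its way to the surface, and Aph1a, a scaffold subunit of gamma-secretase, fell by 0.22 and by 0.19. Furin did not pass without DMSO replicate 1, DMSO replicate 2 or GA replicate 1 (adjusted p by limma 0.103, 0.0797 and 0.112), nor Aph1a without DMSO replicate 2 (0.125). Of 8 genes tested that add sugars to the receptor, 4 rose, among them the fringe genes Rfng (0.43) and Lfng (0.27) and the xylosyltransferase gene Gxylt1 (0.50), and Gxylt2 fell by 0.26. After the shift 2 of the 8 were called higher and 2 lower. Of the genes named, Lfng did not pass after the shift or without DMSO replicate 1 (adjusted p by limma 0.632 and 0.0558).

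Ubiquitin ligases that act on ligands went both ways. Of 3 tested, Neurl1a fell from 4.25 and 4.33 FPKM to 1.55 and 1.76 FPKM, a log2 fold change of -0.99 (adjusted p by limma 1.06e-04). Mib1, the ligase best known for ligand endocytosis, had a log2 fold change of 0.28 as deposited and did not pass after the shift. Of the 11 genes that govern receptor turnover, 7 rose and 2 fell as deposited, and after the shift 3 were called higher and 2 lower. The Deltex genes Dtx2 and Dtx4 and the ligase gene Nedd4 rose by 0.98, 0.74 and 0.64 on the log2 scale, and the adaptor gene Numbl and the Deltex gene Dtx3 fell by 0.34 and 0.26. All 5 genes named were called in the same direction after the shift. Dtx3 did not pass without DMSO replicate 2, GA replicate 1 or GA replicate 2 (adjusted p by limma 0.262, 0.126 and 0.0521).

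In the nuclear complex, 5 of 9 genes (55.6%) were called higher as deposited and 0 lower, beside 46.3% and 11.9% of all genes tested. Rbpj itself went from 20.99 and 21.02 FPKM to 27.6 and 27.8 FPKM, with a log2 fold change of 0.38 (adjusted p by limma 7.85e-04), and narrowly missed the threshold after the shift (adjusted p by limma 0.0524). The acetyltransferase gene Kat2b rose by 0.93 and Crebbp by 0.39, the latter not after the shift. After the shift 1 of the 9 was called higher and 2 lower. Of 16 corepressor genes 9 (56.2%) rose as deposited, led by Tle1 (0.85), a partner of HES proteins, Fhl1 (0.76), whose product can bind RBPJ, and the deacetylase gene Hdac1 (0.56), and 1, Tle5, fell by 0.19. Without DMSO replicate 2 or GA replicate 1, Tle5 did not pass (adjusted p by limma 0.228 and 0.0613). With the shift 3 corepressor genes were called higher and 4 lower.

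Of 12 other genes known as Notch targets in one or another cell type, 6 were tested, and 4 fell and 1 rose, where 11.9% of all genes were called lower and 46.3% higher. Ccnd1, cyclin D1, went from 207 and 202 FPKM to 119 and 125 FPKM, a log2 fold change of -0.74 (adjusted p by limma 3.46e-05). Cdkn1a, the cell cycle inhibitor p21, fell by 0.39 and Myc by 0.24. Snai2 had a log2 fold change of 0.26 and did not pass after the shift, where 5 of the 6 were called lower, beside 27.9% of all genes, and 0 higher. Myc did not pass without DMSO replicate 2 (adjusted p by limma 0.0606), nor Snai2 without DMSO replicate 1, GA replicate 1 or GA replicate 2 (0.171, 0.0678 and 0.0517). The median log2 fold change of this list was -0.22. Hes5 was at 0 FPKM in all 4 libraries, and Hey2, Hes7, Nrarp, Dtx1 and Gata2 lay under the minimum FPKM of the test. All these genes have regulators other than Notch, and their part was not tested.

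**Figure D5:**
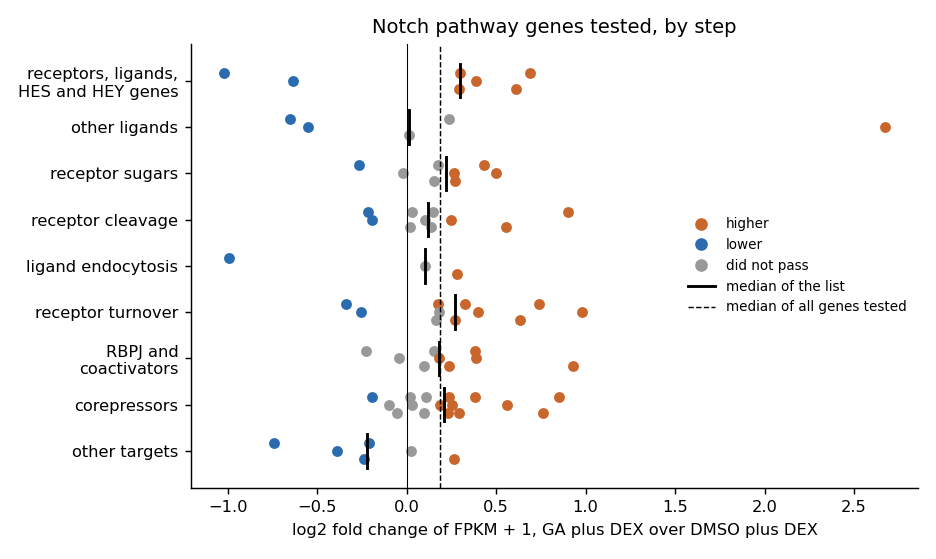
Log2 fold change of FPKM + 1 for each Notch pathway gene tested, by step of the pathway (1 point per gene), coloured by its call as deposited, with the median of each list (bar) and of all genes tested (dashed line). Hes1 and Hey1 lie to the left in the top line, Ccn3 lies alone near 2.68, and 4 of the 6 other targets are below 0 with a call.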

How the data were processed

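Libraries were made from poly(A) RNA and sequenced by a commercial service. The authors deposited FPKM values with 1 column per library, each named as its sample. Bowtie2 2.2.3, HTSeq 0.6.1, TopHat2 2.0.12 and mm9 stand in the submitters' processing notes. Which annotation, gene length and strand setting were used is not given in the sources used here. Ensembl identifiers were paired with symbols for 46488 of 47069 genes, and Tle5 was matched through an older symbol. Apart from the promoter windows, which are in GRCm38.p6 and not mm9, no coordinates of genes are given, because the annotation at hand was of GRCm38.

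Whole reads were recovered from the FPKM steps (tolerance 0.0001 read) for all 23404 genes above 0. They summed to 99.5% of the depth in each library, and 1 FPKM over 1 kb stood for 21.6 to 31.1 reads. Reads of Hes1 are fixed only up to a common factor. Counting limits the genes near 1 FPKM. The chi-square per gene between the 2 libraries of a group averaged 7.73 (DMSO) and 4.69 (GA), above the mean of 1 that sampling gives. Its median was 0.87 and 1.01, to which that value of 1 does not apply. Such spread does not separate different cultures from repeat preparations, and each library was counted as a sample.

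limma 3.58.1 in R 4.3.3 (lmFit, eBayes with trend) was run on log2(FPKM + 1) of all 12174 genes averaging 1 FPKM or more, with 5.38 prior and 2 residual degrees of freedom. Log2 fold changes on this scale understate changes of low genes, and folds are ratios of mean FPKM. For its statistics as a whole the paper's methods name an unpaired, two-tailed test, and for RNA-seq no tool. With 2 libraries a group, a spread pooled over genes was used here. The script was checked on simulated reads in which a small part of the genes changed, in both directions. That check does not cover a rise of most genes tested, as in these data. The members and lists were chosen with earlier results of these data known. All 10 members are named. Of each other list up to 3 genes per direction with the largest change among those called were to be named, and not every gene the rule covers is described. The genes under the minimum FPKM are named outside the rule. Alternatives were other pseudocounts and minima, other scalings, limma without trend or moderation, a replicate block, each library left out, and voom on recovered reads. Figures were drawn with matplotlib 3.10.9.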

Additional observations from a re-analysis of the deposited data

How the results depend on the processing

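The counts of calls moved with the scaling. As deposited 5 Notch genes were called higher, against 2 with the shift to a common median, 2 with quantile normalization, 3 with FPKM recomputed without the 10 most abundant genes, 2 without moderation and 3 with voom. The 2 called lower became 1 at a minimum FPKM of 5, where Hey1 was not tested, and 1 without moderation. The 4 Notch genes past the thresholds of the study became 2 with a pseudocount of 5, 2 with the shift and 2 with quantile normalization. Of the other pathway genes, 31 were called higher as deposited, against 12 with the shift, 13 with quantile normalization, 16 without the 10 most abundant genes, 12 without moderation and 15 with voom, and 13 were called lower, against 22, 22 and 21 for the shift, quantile normalization and voom and 3 without moderation. Of all genes tested, 46.3% were called higher as deposited and 19.5% with the shift, and 11.9% and 27.9% were called lower. Under quantile normalization, without the 10 most abundant genes, without moderation, with voom, with a library left out or with the replicate block, the shares of all genes were not computed. The counts under those settings therefore do not show if the Notch genes moved more than other genes. Why the counts moved was not tested.

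With each library left out in turn, 4 to 5 Notch genes were called higher, 2 lower and 4 past the thresholds of the study. The other pathway genes gave 20 (without DMSO replicate 1) to 28 called higher and 7 (without DMSO replicate 2) to 12 called lower. The log2 difference of Notch3 over Notch1 ran from -0.007 (without GA replicate 2) to 0.288. By longest transcript, an alternative added after the data were seen, Notch1 over Notch3 was 0.448 under DMSO and 0.405 under GA. Both replicate numbers occur in both groups, but nothing says what they mark. The deviations of same-numbered libraries from their group means had a correlation of -0.025. With 2 libraries a group both numbers must give this same value. With the replicate block 5 Notch genes were called higher and 2 lower, and 31 and 13 of the other pathway genes. Depth limits Jag2, Dll4 and Heyl.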
